A study of Homo sapiens with 6 samples.

Results

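Plasminogen activation was followed through 7 genes, chosen by symbol from the 28514 rows of the deposited count table. They were the activators PLAU (urokinase) and PLAT (tissue plasminogen activator), the urokinase receptor PLAUR, the inhibitors SERPINE2 and SERPINB2, and ANXA2 with S100A10, whose products form a plasminogen-binding complex at the cell surface. All 7 passed the filter on low counts. The 6 mRNA libraries came from CI-huVEC, endothelial cells of the human umbilical vein that have been immortalised, sampled at passage 31. The knockout group held K17, K18 and K19, each a clonal line of genotype CCM3 -/- made by CRISPR/Cas9 editing at exon 3 of CCM3 (official symbol PDCD10). The other group held 3 wild-type lines (WT1, WT2 and WT4). Every sample is also labelled with the clone HKO, which the labels do not explain. An effect of CCM3 loss and a difference between edited clones and wild-type lines cannot be told apart here, and the origin of the wild-type lines is not stated, so that p-values reflect no more than the spread of these samples, part of which may be technical.

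Plasminogen circulates as an inactive precursor and is cut to plasmin by urokinase or by tissue plasminogen activator. Plasmin dissolves fibrin and also degrades matrix proteins. Urokinase acts on the cell surface while bound to its receptor. Endothelial cells are a source of tissue plasminogen activator in blood, and serpins block both activators by forming covalent complexes with them.

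The promoter sequences of PLAU and SERPINB2 are shown because these genes were the activator with the smallest spread among the knockout clones and the inhibitor with the largest fold change. The sequences were taken by symbol from RefSeq (GRCh38.p14) and give the 250 bases before a transcript start, read 5′ to 3′ on the plus strand. PLAU lies at chr10:73910882-73911131, the downstream of 2 starts listed for it, and SERPINB2 at chr18:63887455-63887704. Capitals mark matches to short motifs searched on both strands. The first is the GC box, searched as GGGCGG. The second is the core of the TATA box, searched as TATAAA, and the third is the AP-1 motif, searched as TGANTCA.
PLAU: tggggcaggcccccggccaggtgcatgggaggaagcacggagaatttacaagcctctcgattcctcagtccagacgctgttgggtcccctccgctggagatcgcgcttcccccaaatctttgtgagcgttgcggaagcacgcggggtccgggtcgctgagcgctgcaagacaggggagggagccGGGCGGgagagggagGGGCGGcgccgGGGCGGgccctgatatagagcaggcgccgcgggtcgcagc
SERPINB2: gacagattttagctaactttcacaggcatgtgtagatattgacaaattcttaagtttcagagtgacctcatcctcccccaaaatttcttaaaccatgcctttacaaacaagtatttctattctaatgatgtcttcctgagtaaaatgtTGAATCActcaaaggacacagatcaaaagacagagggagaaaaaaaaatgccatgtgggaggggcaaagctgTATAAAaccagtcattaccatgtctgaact

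The PLAU window held 3 GC boxes, the nearest ending 35 bases before the start, and neither TATAAA nor TGANTCA. The window before the upstream PLAU start, chr10:73910360-73910609, held no match to any motif searched. Of the GC box, TATAAA and TGANTCA, the SERPINB2 window held only those that the PLAU window shown lacked. It held a TATAAA between 30 and 25 bases before the start and a TGAATCA between 102 and 96 bases before it, and no GC box. Among 35116 windows of the same length, 42.6% held a GC box, 10.7% a TATA box and 6.57% an AP-1 motif. Neither window shown held the cyclic AMP response element TGACGTCA, found in 1.65% of windows. The CACCC box, searched as CCACCC and found in 31.3% of windows, was absent from both as well. The matches describe the sequence only, and the counts carry no measurement of binding or of which start was used.

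Library totals ranged from 28280417 to 29834621 counts in the knockout clones and from 28392460 to 32919491 in the wild-type lines. Each member had at least 949 counts in each library. PDCD10 itself was lower but still transcribed. It had 37.2 ± 5.35 CPM (counts scaled to the TMM-adjusted library total) in the clones and 61.0 ± 0.604 CPM in the wild type (SD, n = 3 each). The clones differed more from each other than the wild-type lines did: the median SD of log2 CPM over all tested genes was 0.186 among the clones and 0.0696 among the wild-type lines. Of 11 endothelial markers all were tested, and their summed level was 4726 to 5365 CPM in the clones and 2866 to 3018 CPM in the wild type. Of these, 9 were called higher by edgeR, against 18% of all tested genes. CDH5 (log2 fold change 0.18, adjusted p = 0.137 by edgeR) and ERG (-0.08, adjusted p = 0.289) were not called. Sums for other cell types also differed. They were 20.5 to 32.8 CPM in the clones and 299 to 314 CPM in the wild type for 7 smooth muscle and pericyte markers. RGS5 made up most of the wild-type sum, at 301 ± 7.82 CPM, and measured 11.2, 5.06 and 14.9 CPM in K17, K18 and K19. It was called lower (log2 fold change -4.85, adjusted p = 0.000331 by edgeR). PDGFRB had at most 2 counts in any clone and 6 in any wild-type library. Within that list ACTA2 was higher and measured 8.59, 16.1 and 15.8 CPM in K17, K18 and K19, against 3.84, 4.09 and 3.71 CPM in WT1, WT2 and WT4 (adjusted p = 0.00305 by edgeR), and MYH11 was not called. For 6 fibroblast markers the sums were 54.5, 121 and 273 CPM in K17, K18 and K19 and 4.22 to 4.34 CPM in the wild type. PI16 made up most of each clone sum (K17 53.9, K18 120, K19 266 CPM). The larger part of the wild-type sum was COL1A2, with a mean of 2.53 ± 0.258 CPM, against 1.17 ± 0.258 CPM for PI16. PI16 was called higher (log2 fold change 6.96, adjusted p = 0.00106 by edgeR). None of the other fibroblast markers was called. COL1A1 measured 0.0341, 0.253 and 3.49 CPM in K17, K18 and K19, against 0.151, 0.301 and 0.208 CPM in WT1, WT2 and WT4. Its clones stood in the same order as for PI16, with K17 below every wild-type library, and it did not pass the filter. COL1A2 measured 0.239, 0.181 and 3.15 CPM in K17, K18 and K19, against 2.57, 2.26 and 2.77 CPM in WT1, WT2 and WT4, and was not called, while DCN, LUM and PDGFRA did not exceed 0.346 CPM in any library. For 5 epithelial markers, mostly KRT18, the sums were 349 to 625 CPM in the clones and 242 to 261 CPM in the wild type, with CDH1 at 0 counts in all 6 libraries. KRT8 (log2 fold change 1.28, adjusted p = 0.00403 by edgeR) and KRT18 (0.94, adjusted p = 0.0142) were called higher, and EPCAM was not called. For 5 leukocyte markers, mostly CD68, the sums were 37.6 to 42.4 CPM in the clones and 20.1 to 24.3 CPM in the wild type. CD68 was called higher (log2 fold change 0.77, adjusted p = 0.00173 by edgeR). PTPRC had at most 5 counts in any clone and 23 in any wild-type library, and CD3E at most 6 in any library. CD14 did not exceed 1.11 CPM. ITGAM was called higher at 0.675 ± 0.0158 CPM in the clones and 0.0919 ± 0.103 CPM in the wild type (adjusted p = 0.0101 by edgeR). The part of these cell types in the results was not tested. In bulk RNA a change in the number of cells of a type and a change in RNA per cell cannot be told apart.

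Both activators, both serpins and both partners of the annexin complex rose in the CCM3-knockout clones, while the urokinase receptor did not pass the test. By the edgeR quasi-likelihood test with Benjamini-Hochberg adjustment over 14548 genes, 6 of 7 members were called higher and 0 lower at an adjusted p below 0.05. Over all tested genes 18% were called higher and 20.8% lower. At an increase of 1 or more on the log2 scale 5 of 7 members were called, against 7.1% of all tested genes. The median log2 fold change was 1.74 over the members and 0.002 over all tested genes. In all 7 members the lowest clone lay above the highest wild-type library, as it did in 24.5% of tested genes. The members had been proposed with earlier results of these data known, so these counts describe them and do not set them apart.

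**Figure D1:**
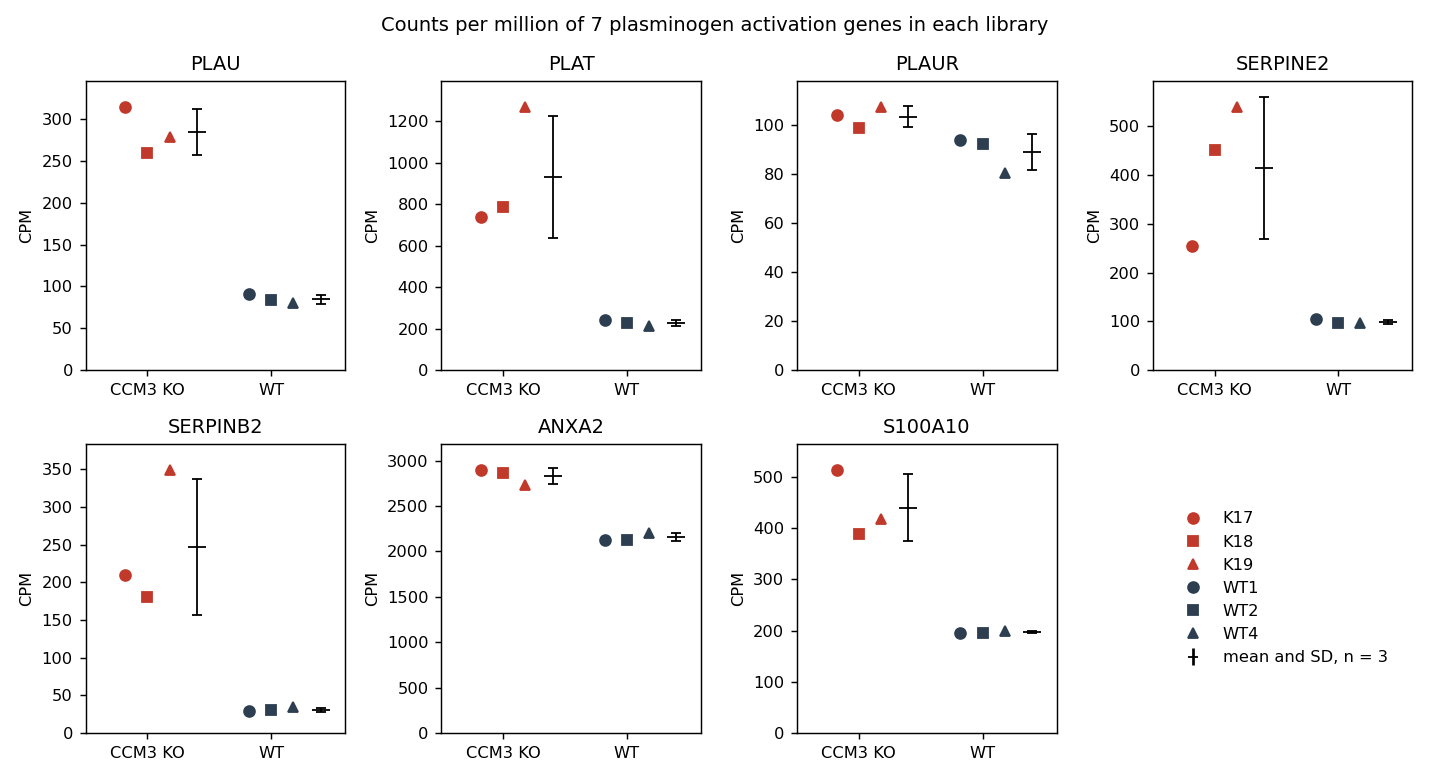
CPM with TMM scaling (y axes, starting at 0) of the 7 genes in each library, CCM3-knockout clones left and wild-type lines right, with mean and SD (n = 3) in black. Knockout points lie above wild-type points in every panel, by the smallest margin for PLAUR, and the clones scatter most for PLAT, SERPINE2 and SERPINB2.

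PLAU codes for urokinase, the activator that works at the cell surface. It measured 314, 260 and 279 CPM in K17, K18 and K19, against 90.5, 83.4 and 80.5 CPM in WT1, WT2 and WT4. All 3 clones stood about the same distance above the wild-type lines, at 3.70, 3.06 and 3.29 times their mean. This gave a log2 fold change of 1.74 ± 0.09 (SE), with an adjusted p of 7.26e-05 by edgeR. In the clones PLAU ranked 648 of 14548 tested genes by mean CPM, and in the wild type 3021. A gene on the opposite strand, C10orf55, overlaps PLAU, and its counts came to 1.79% to 2.12% of those of PLAU in the clones and 1.20% to 1.34% in the wild type. Since the strand setting of the counting is not given, reads of this pair cannot be told apart with certainty.

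PLAT codes for tissue plasminogen activator, which endothelium secretes and which is most active on fibrin. It measured 738, 789 and 1268 CPM in K17, K18 and K19, against 240, 230 and 212 CPM in WT1, WT2 and WT4. K19 stood well above the other clones, while even the lowest clone was at 3.24 times the wild-type mean. The log2 fold change was 2.03 ± 0.22 (SE; adjusted p = 0.00107 by edgeR), and 1.77 without K19 (adjusted p = 0.000149). PLAT ranked 84 by mean CPM in the clones and 837 in the wild type.

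PLAUR codes for the receptor that holds urokinase on the membrane through a lipid anchor. It measured 104, 98.6 and 107 CPM in K17, K18 and K19, against 93.9, 92.1 and 80.4 CPM in WT1, WT2 and WT4. The groups did not overlap, yet the lowest clone and the highest wild-type library differed by little. The log2 fold change of 0.22 ± 0.08 (SE) was not called by edgeR (adjusted p = 0.0663). It was called by DESeq2 (adjusted p = 0.0349), with a filter of 1 CPM in 3 libraries (adjusted p = 0.0321) and without K17 (adjusted p = 0.0315), whereas after removal of GC-content trends the value was 0.07 (adjusted p = 0.552). In the authors' deposited table its adjusted p was 0.0674.

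SERPINE2 codes for protease nexin, a serpin that inhibits thrombin and urokinase at cell surfaces and in matrix. It measured 254, 452 and 539 CPM in K17, K18 and K19, against 104, 95.9 and 97.3 CPM in WT1, WT2 and WT4. K17 was the lowest clone and still at 2.56 times the wild-type mean, and K19 was at 5.44 times. On the log2 scale the fold change was 2.07 ± 0.27 (SE; adjusted p = 0.00214 by edgeR). Its SD of log2 CPM among the clones, 0.568, exceeded that of 88.2% of tested genes, whereas among the wild-type lines it was 0.0597, near the median.

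SERPINB2 codes for a serpin inhibitor of urokinase and tissue plasminogen activator that is largely kept inside the cell. It measured 210, 181 and 349 CPM in K17, K18 and K19, against 28.7, 30.4 and 33.8 CPM in WT1, WT2 and WT4. This was the largest change among the 7 genes, with clones at 6.79, 5.85 and 11.3 times the wild-type mean. The log2 fold change was 2.99 ± 0.26 (SE; adjusted p = 0.000509 by edgeR), higher than that of 98.9% of tested genes. K19 was the highest clone for SERPINB2, as for PLAT and SERPINE2, and also the clone with the highest PI16 level and so the highest sum over the fibroblast list. The lowest clone was K18 for SERPINB2 and K17 for PLAT, SERPINE2 and PI16. A relation of these genes to PI16 was not tested. SERPINB10, which overlaps SERPINB2 on the same strand in GENCODE, had at most 3 counts in any library.

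ANXA2 codes for annexin A2, a calcium-dependent phospholipid-binding protein that serves as a receptor for plasminogen and tissue plasminogen activator on endothelium. It measured 2898, 2863 and 2732 CPM in K17, K18 and K19, against 2131, 2127 and 2206 CPM in WT1, WT2 and WT4. The change was small and even, with clones at 1.27 to 1.34 times the wild-type mean. Across the groups the log2 fold change was 0.39 ± 0.04 (SE; adjusted p = 0.00115 by edgeR). The gene ranked 8 by mean CPM in the clones and 12 in the wild type. Reads may be shared with near-identical processed pseudogenes. ANXA2P2 had counts equal to 0.888% to 0.899% of those of ANXA2 in the clones and 0.807% to 0.888% in the wild type, and its own log2 fold change was 0.47 (adjusted p = 0.00407 by edgeR). ANXA2P1 and ANXA2P3 had at most 6 counts in any library.

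S100A10 codes for the small partner of annexin A2, whose terminal lysine binds plasminogen. It measured 514, 389 and 418 CPM in K17, K18 and K19, against 196, 195 and 199 CPM in WT1, WT2 and WT4. K17 was the highest clone, unlike for the serpins. The log2 fold change was 1.16 ± 0.11 (SE; adjusted p = 0.000563 by edgeR). The wild-type lines were almost identical, with an SD of log2 CPM of 0.0174, lower than in most tested genes.

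Levels of different genes were compared per transcript length, on the authors' FPKM. In the knockout clones the order of mean FPKM was ANXA2 (1337 ± 66.7), S100A10 (328 ± 54.8), PLAT (229 ± 67.8), SERPINE2 (121 ± 40.6), SERPINB2 (88.9 ± 30.8), PLAU (83.7 ± 9.52) and PLAUR (52.0 ± 2.09; SD, n = 3). Neighbours in that order overlapped between libraries for S100A10 and PLAT, for SERPINE2 and SERPINB2, and for SERPINB2 and PLAU. In the wild type the order was ANXA2 (1051 ± 27.3), S100A10 (151 ± 2.50), PLAT (58.0 ± 3.21), PLAUR (46.2 ± 3.62), SERPINE2 (29.9 ± 0.946), PLAU (25.8 ± 1.32) and SERPINB2 (11.6 ± 1.05), with no overlap between neighbours. The receptor thus stood above both serpins and above urokinase in wild-type lines and below them in the clones.

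**Figure D2:**
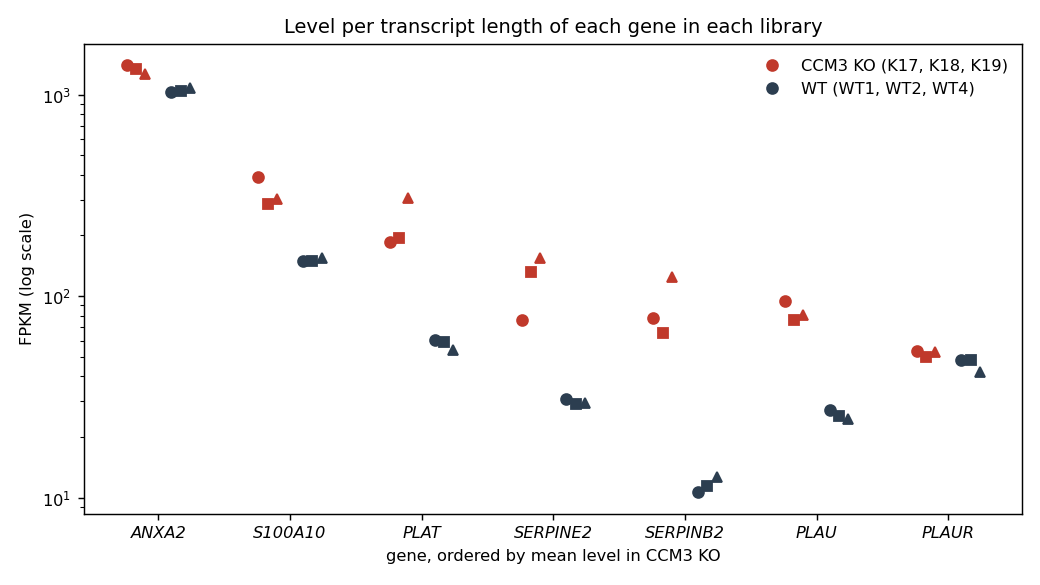
FPKM (log axis) of each gene in each library, with CCM3-knockout clones in red left of wild-type lines in dark blue and genes ordered by mean level in the clones. ANXA2 is highest in both groups, and PLAUR, at 49.6 to 53.5 FPKM in the clones and 42.1 to 48.4 in the wild type, shows the smallest gap between the groups on this log axis.

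Ratios within each library asked whether partners moved by the same amount. The FPKM ratio of PLAU to its receptor PLAUR was 1.77, 1.54 and 1.52 in K17, K18 and K19, against 0.562, 0.529 and 0.584 in WT1, WT2 and WT4. The log2 ratio differed by 1.52, and the exact two-sided permutation test gave p = 0.1, the smallest value that 3 against 3 libraries allow. The ratio of ANXA2 to S100A10 was 3.58, 4.68 and 4.16 in the clones, against 6.91, 6.95 and 7.04 in the wild type. Its log2 ratio was lower in the clones by a difference of -0.76, again with the smallest exact permutation p of 0.1. The ratio of PLAU to PLAT was 0.507, 0.392 and 0.262 in the clones, against 0.449, 0.433 and 0.452 in the wild type. Here the groups overlapped (log2 difference -0.25, exact permutation p = 0.6), and the difference was 0.00 without K19 and -0.47 without K17. Adjusted over these 3 ratios by Benjamini-Hochberg, the p-values were 0.15, 0.15 and 0.6.

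**Figure D3:**
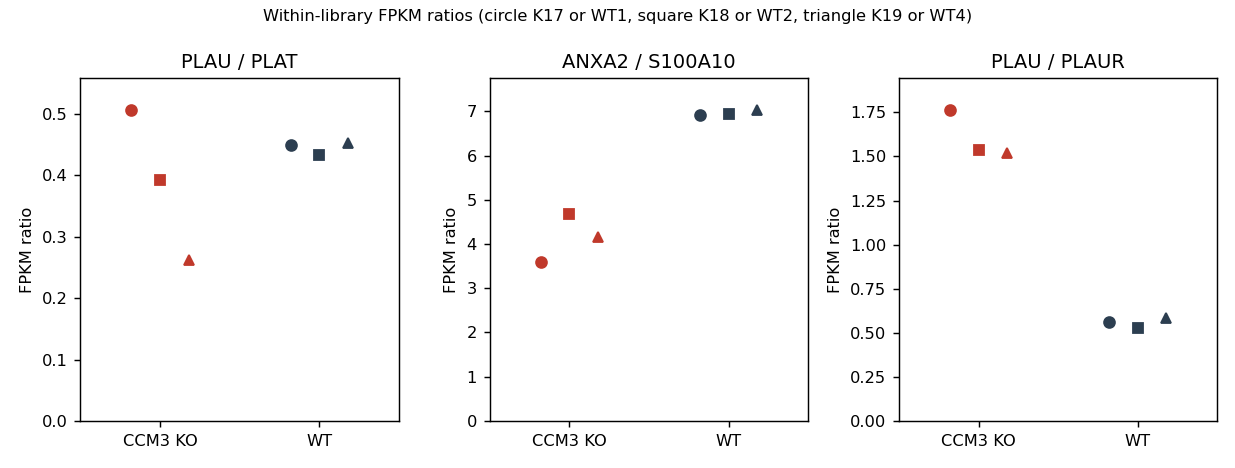
Ratio of FPKM within each library (y axes, starting at 0) for 3 gene pairs, CCM3-knockout clones left and wild-type lines right. The groups separate for PLAU over PLAUR (1.52 to 1.77 in the clones) and for ANXA2 over S100A10 (3.58 to 4.68 in the clones) and overlap for PLAU over PLAT.

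A list of 27 other genes of the system covered the substrate, further inhibitors, plasminogen-binding proteins and partners of the receptor and of annexin A2. It also held 3 pseudogene copies of ANXA2. Of the 27, 17 had enough counts to be tested, of which 7 were higher, 4 lower and 6 not called, against 38.7% of all tested genes called in either direction. The median log2 fold change of these 17 was -0.13. The 7 called higher include ANXA2P2, whose reads may be shared with ANXA2. The substrate was nearly absent: PLG, which codes for plasminogen and is mainly a liver gene, had 1, 3 and 0 counts in K17, K18 and K19 and 0, 1 and 1 in WT1, WT2 and WT4. At this depth 3 counts correspond to 0.102 to 0.108 CPM in the clones and 0.0903 to 0.104 CPM in the wild type. LPA and HRG had no counts in any library, and the kallikrein precursor gene KLKB1 had at most 2. SERPINF2, which codes for the main plasma inhibitor of plasmin, and SERPINI1 (neuroserpin) had at most 9 counts in any library, and CPB2, a carboxypeptidase that protects fibrin, at most 4. The contact factor gene F12 averaged 0.753 ± 0.418 CPM in the clones and 0.560 ± 0.148 CPM in the wild type and was not called (adjusted p = 0.465 by edgeR).

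Among inhibitors of broad range, A2M (alpha-2-macroglobulin) measured 5.79, 9.94 and 13.7 CPM in K17, K18 and K19, against 0.454, 0.422 and 0.416 CPM in WT1, WT2 and WT4. Its log2 fold change was 4.49 ± 0.38 (SE, edgeR adjusted p = 0.000434), and its relative PZP rose by 1.43 ± 0.26 (adjusted p = 0.00716) at 1.12 ± 0.222 CPM in the clones and 0.415 ± 0.0908 CPM in the wild type. On log2 FPKM with a pseudocount of 1 or 0.1, which understates the change of low genes, the values were 1.27 and 3.25 for A2M and 0.15 and 0.74 for PZP, all called by limma. SERPINA5, the protein C inhibitor, which also acts on urokinase, averaged 1.66 ± 0.430 CPM in the clones and 2.67 ± 0.240 CPM in the wild type, a difference of -0.68 that was not called (adjusted p = 0.0537 by edgeR). SERPINA5 was called lower in 7 of 18 alternatives, among them limma-voom (adjusted p = 0.0447) and the fits without K17 (adjusted p = 0.0335) or K19 (adjusted p = 0.0415). Of 3 plasminogen-binding proteins, ENO1, a glycolytic enzyme that also binds plasminogen at the surface, was higher by 0.42 (adjusted p = 0.0157 by edgeR). Without WT1, WT2 or WT4 the ENO1 value was nearly the same (0.44, 0.42 and 0.40) but no longer called (adjusted p = 0.0551, 0.0605 and 0.0701). The dedicated plasminogen receptor gene PLGRKT averaged 14.7 ± 3.61 CPM in the clones and 16.3 ± 0.790 CPM in the wild type and was not called; without K17 it was lower by a log2 value of -0.36 (adjusted p = 0.00884). IGF2R, a sorting receptor that binds plasminogen, averaged 118 ± 23.9 CPM in the clones and 141 ± 5.04 CPM in the wild type and was not called (adjusted p = 0.206 by edgeR).

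Partners of the urokinase receptor were called in both directions. Of 8, 7 were tested, of which 4 were lower, 1 higher and 2 not called, with a median log2 fold change of -1.02. Over all tested genes 20.8% were called lower and 18% higher, and with 7 genes the difference from those shares was not tested. MRC2, an endocytic collagen receptor that associates with the urokinase receptor, measured 0.681, 1.34 and 3.84 CPM in K17, K18 and K19, against 45.9, 46.9 and 39.1 CPM in WT1, WT2 and WT4. The adjusted p by edgeR was 0.00183 for a log2 fold change of -4.49 ± 0.55 (SE), which was -5.43 without K19, -4.07 without K17 and -4.27 without K18. After removal of GC-content trends it was -5.13, and on log2 FPKM it was -2.48 with a pseudocount of 1. LRP1, the endocytic receptor that clears complexes of urokinase with its inhibitors, averaged 0.476 ± 0.431 CPM in the clones and 3.71 ± 0.485 CPM in the wild type (adjusted p = 0.00774). Its log2 fold change was -2.95. The value was -3.98 without K19 and -2.54 without K17, and on the compressed scale of log2 FPKM it was -0.23 with a pseudocount of 1 and -1.29 with 0.1. SRPX2, a secreted ligand of the receptor, averaged 88.9 ± 22.4 CPM in the clones and 180 ± 5.06 CPM in the wild type (adjusted p = 0.00605 by edgeR). ITGAV, the alpha chain of the vitronectin-binding integrins, averaged 202 ± 36.0 CPM in the clones and 547 ± 32.8 CPM in the wild type (adjusted p = 0.000592). Of the beta chains, ITGB5 was higher by 0.44 (adjusted p = 0.00265), while ITGB3 (-0.13, adjusted p = 0.477) and ITGB1 (-0.25, adjusted p = 0.126) were not called by edgeR; without K17 the ITGB1 value was -0.37 (adjusted p = 0.00355). VTN, which codes for vitronectin, had at most 10 counts in any library.

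Both listed partners of annexin A2 were called higher, as were 18% of all tested genes, but 1 of these calls did not hold under every setting. AHNAK, a giant scaffold protein that binds the complex with S100A10, was at 1886 ± 155 CPM in the clones and 1427 ± 46.5 CPM in the wild type (adjusted p = 0.0056 by edgeR). After removal of GC-content trends its log2 value was 0.05 (adjusted p = 0.885). ANXA2R, named as an annexin A2 receptor, averaged 14.3 ± 2.83 CPM in the clones and 7.10 ± 0.425 CPM in the wild type (adjusted p = 0.00428).

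**Figure D4:**
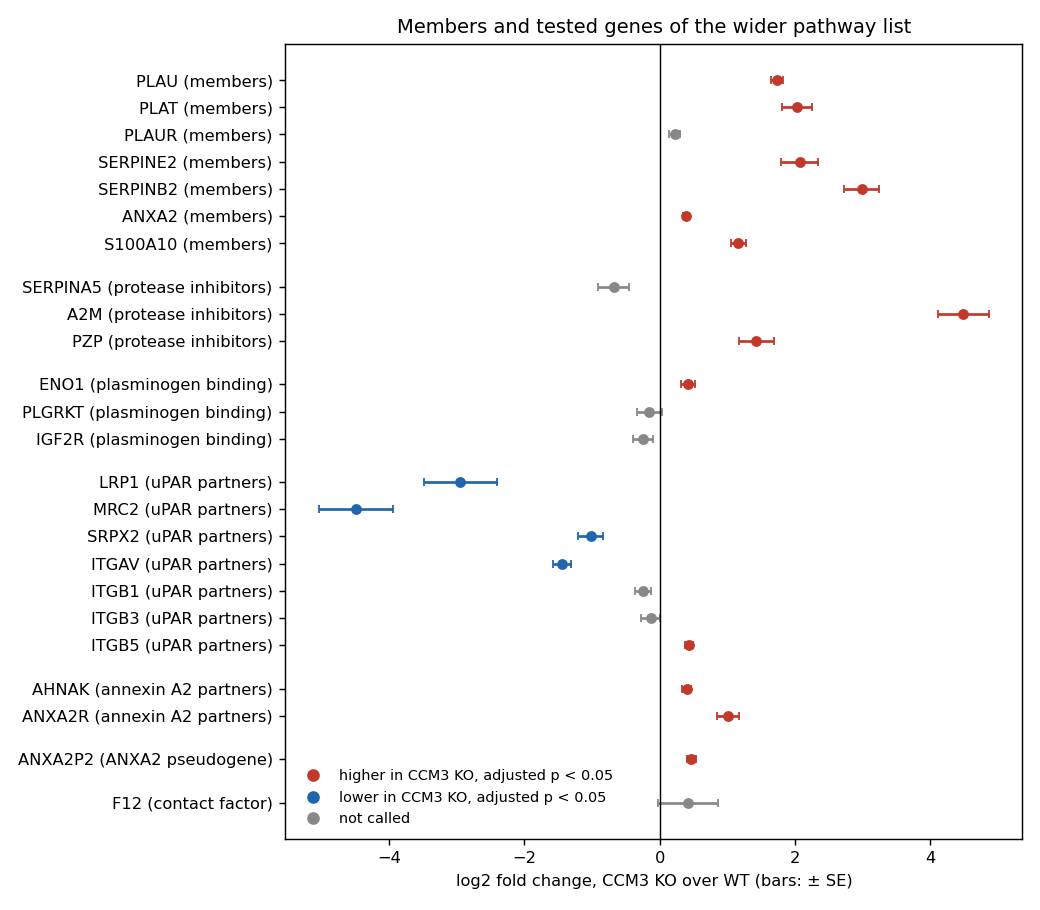
Log2 fold change of CCM3 knockout over wild type, with SE as bars, for the 7 members and the 17 tested genes of the wider list. Red points were called higher and blue points lower by edgeR; the blue points are LRP1, MRC2, SRPX2 and ITGAV, all among partners of the urokinase receptor.

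Genes with the most similar pattern were sought among 9598 tested genes with a mean of at least 10 CPM, by Pearson r of log2 CPM over the 6 libraries. Since the libraries form 2 groups, any gene that separates them has a high r, and the values are descriptive. The phosphatase gene DUSP4 (r = 0.9994) and the ubiquitin ligase gene NEDD4L (0.999) came closest to PLAU, and the cyclin gene CCND1 (0.9993) and SLC37A1 (0.9989) to PLAT. Closest to SERPINE2 were DAB2 (0.9986) and PPM1F (0.9983), and to SERPINB2 they were CROT (0.9986) and SNN (0.9983). S100A10 was nearest to the receptor kinase gene GRK5 (0.9999) and to VAMP8 (0.9993), and ANXA2 to MALT1 (0.9988) and DTX3L (0.9984). The closest genes for PLAUR were ITPRIP (0.9922) and TIMM8B (0.981), lower values than for the other 6 members.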

How the data were processed

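Stranded mRNA libraries were sequenced, per the labels' protocols. The submitters' processing notes name STAR, HTSeq and the builds hg19 and GRCh37. Neither annotation nor strand setting is stated in the sources used here. The authors deposited whole-number counts per gene symbol and, in the same table, FPKM. A second deposited table held the authors' own log2 fold changes with standard errors, p-values and a mean normalized signal (baseMean) per gene, per the file headers; its tool is not given. Of 28514 rows, 13 bore dates instead of symbols (0.175% to 0.196% of counts) and were kept.

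Counts were tested with edgeR 4.0.16 (glmQLFit with robust estimation, two-sided) after TMM scaling and filterByExpr at its defaults (minimum count 10, total 15), leaving 14548 genes, with Benjamini-Hochberg adjustment over these and calls below 0.05. CPM used the same factors. The SE given with an edgeR log2 fold change was derived from the test, as the absolute fold change divided by the square root of the F statistic. No library counted as a duplicate: the chi-square per degree of freedom was 21.1 to 74.8 between clones and 2.17 to 4.49 between wild-type lines. Spread and pattern likeness used log2(CPM + 0.1). Alternatives used limma 3.58.1 (also on log2 of FPKM plus 1 or 0.1), DESeq2 1.42.0, other scalings and filters, and each library left out. A lowess removal of each library's GC-content trend (span 0.3; GENCODE v29 values for 86.7% of tested genes, the others left out) and limma-voom with quality weights per group were chosen after seeing the data. Genes named were the 7 members, PDCD10, called or near-absent genes of the pathway list, and the 2 genes most like each member; uncalled pathway genes, single genes of the cell type marker lists and the overlapping genes C10orf55 and SERPINB10 were added after their values were seen. Members and lists were chosen with earlier results of these data known. Symbols of all 27 pathway genes matched the table directly. Chromosomes come from RefSeq. Genes overlapping a member were found by GENCODE v29 coordinates. No coordinates other than those of the promoters are printed, since the files use another build. Some genes are not reported here.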

Additional observations from a re-analysis of the deposited data

How the results depend on the processing

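PLAU, PLAT, SERPINE2, SERPINB2, ANXA2 and S100A10 were called higher in all 18 alternatives, with log2 fold changes of 1.66 to 1.83, 1.77 to 2.18, 1.85 to 2.33, 2.68 to 3.19, 0.35 to 0.44 and 1.04 to 1.27; their highest adjusted p-values were 0.00151, 0.00978, 0.0161, 0.0058, 0.0132 and 0.00628. PLAUR was called in 3 of 18, at 0.25 with the filter of 1 CPM, 0.23 by DESeq2 and 0.22 without K17, with a range of 0.15 to 0.27 over the libraries left out. With the filter of 1 CPM fewer genes were tested, and the estimates moved as well. The SE of PLAUR was then 0.07, against 0.08 in the main fit, and the median log2 fold change over genes was 0.034, against 0.002. The cause of these 3 calls was not tested. Leaving out 1 library, all genes called numbered 4776 higher and 4491 lower without K17, 2181 and 2278 without K18, and 2111 and 2337 without K19. They numbered 1418 and 1663 without WT1, 1492 and 1868 without WT2, and 1370 and 1650 without WT4 (all libraries, 2612 and 3025). Called genes of the pathway list ranged from 6 to 7 higher and from 4 to 7 lower, with the most lower calls without K17. The log2 FPKM ratios ranged from -0.47 to 0.00 (PLAU to PLAT), from -0.85 to -0.66 (ANXA2 to S100A10) and from 1.45 to 1.56 (PLAU to PLAUR), and CPM in place of FPKM gave the main values. No paired analysis was possible because the labels give no replicate numbers that the groups share. With 3 libraries a group, the exact test of a ratio cannot go below 0.1.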
